A study of Mus musculus with 14 samples.

Results

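The Id proteins and their E-protein partners are 8 genes of the 49671 in the count table, matched by symbol: Id1, Id2, Id3, Id4, Tcf3, Tcf4, Tcf12 and Twist1. The list was drawn up with earlier results of these data known. They were followed in C2C12 cells, an established mouse line of skeletal muscle myoblasts, by RNA sequencing of 14 libraries in 7 groups of 2. The day 0 group grew in 20% fetal calf serum (FCS), and the other cells were changed to DM1, DM2 or DM3 medium and collected at day 2 or day 7. DM1 held 2% horse serum (HS). DM2 held 10% FCS with a fat-inducing cocktail: insulin (1 µg/ml), IBMX (0.5 mM, which blocks cyclic AMP breakdown), dexamethasone (0.5 µM, a glucocorticoid) and rosiglitazone (2 µM, which activates PPAR-gamma). DM3 held 2% HS with the same cocktail. All groups share this single cell line, and the sample labels name no genetic change.

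E proteins are basic helix-loop-helix (bHLH) transcription factors that pair with tissue-specific bHLH factors, such as MyoD and myogenin in muscle, and bind E-box DNA. Id proteins have the helix-loop-helix that makes the pair but lack the basic region that touches DNA, so an E protein bound to an Id protein cannot bind an E box. In myoblasts Id proteins are known to hold back muscle differentiation, and their genes are textbook targets of BMP signals carried by Smad proteins and of serum.

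Sequence upstream of Id2 and Id3 is shown because both genes moved widely over the media. It comes from the RefSeq promoter table (GRCm38.p6, 5′ to 3′), in which 6 of the 8 members were matched and used, counting back from the RefSeq start site. Capitals mark matches to the motifs searched on both strands: the E box CANNTG, its form CAGCTG (which every CANNTG count includes), the cyclic AMP response core TGACG, the full site TGACGTCA, the GC-rich Smad motif GGCGCC, the Egr motif GCGNGGGCG and the palindromic glucocorticoid response element. The Id2 stretch lies at chr12:25096254-25096342 on the minus strand. It is in no annotated exon, but inside the Gencode span of the Id2 gene (25093799 to 25097140). The Id3 stretch lies at chr4:136143639-136143668 on the plus strand, inside the first exon of a longer Gencode transcript.
Id2: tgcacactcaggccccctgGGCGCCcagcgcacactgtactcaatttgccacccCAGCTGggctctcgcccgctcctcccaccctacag
Id3: ccgctgtcctcggCGTCAgaccagcctaag
In the 250 bases before its start, Id2 held 1 GGCGCC at position -231 and 1 CAGCTG at -196. Id3 held 1 such core, read as CGTCA, at -170. Of 32851 promoter windows of the same length, 9.59% held GGCGCC, 13% CAGCTG and 17.8% the TGACG core, so none of these matches is rare.

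The libraries held 21907617 to 29784885 expected counts. The labels number the replicates without saying that they were separate cultures, so p-values measure the spread between libraries, which may be technical. Of 6 myoblast markers, 5 or 6 had over 3 counts in both libraries of every group, with Pax7 at 0.739 CPM or less. Of 6 adipocyte markers, 1 to 4 had over 3 counts in both libraries of a group, and their sum ran from 2.25 and 3.56 CPM at day 0 to 24.6 and 29.0 CPM in DM2 at day 2. Most of that sum was Cebpa in every group but DM2 at day 7. Cebpa stood at 2.46 ± 0.82 CPM at day 0. At day 2 it was at 6.14 ± 0.88 CPM in DM1, 22.5 ± 2.57 in DM2 and 20.9 ± 3.99 in DM3. By day 7 it was at 19.1 ± 1.21 CPM in DM1, which holds no cocktail, 6.41 ± 1.31 in DM2 and 23.6 ± 1.25 in DM3. Fabp4 went from 0.415 ± 0.105 CPM at day 0 to 4.31 ± 0.53 and 6.74 ± 0.90 in DM2 at day 2 and day 7. By day 7 in DM2 Plin1 reached 0.917 ± 0.087 CPM, and Adipoq and Cfd were at most 0.339 CPM in any library, with Lep at 0 throughout. Of 4 macrophage or leukocyte markers 1 passed that count in each group, Cd68, at 1.07 ± 0.32 CPM at day 0, 6.47 ± 0.42 in DM2 and 3.75 ± 0.39 in DM3 at day 7, while Adgre1 was at 0 throughout. The sum of 5 fibroblast or tendon markers was 75.0 and 60.7 CPM at day 0 and 169.0 and 167.9 CPM in DM1 at day 7, the group with the deepest Id1 and Id3 falls. There Dcn stood at 64.2 ± 5.40 CPM against 0.638 ± 0.014 at day 0, and Pdgfra at 56.8 ± 0.56 against 17.4 ± 0.37. Dpt was also higher (7.73 ± 1.46 against 0.034 ± 0.048 CPM), but Scx had a lower mean (39.7 ± 7.07 against 49.8 ± 9.81) and Tnmd was at 0. Dcn was above day 0 at day 7 in DM2 (22.6 ± 0.07 CPM) and DM3 (18.4 ± 1.35) too. Summed endothelial markers stayed between 1.04 and 4.16 CPM, and summed smooth muscle markers ranged from 172.1 (DM2 day 2) to 2264 CPM (DM3 day 7). Nearly all of the smooth muscle sum was Acta2, at 196.2 ± 36.5 CPM in DM2 at day 2 and 2146 ± 167 in DM3 at day 7. Between the same groups Cnn1 went the other way, from 1.47 ± 0.02 to 0.187 ± 0.085 CPM. Myh11 was at most 0.507 CPM in any library. The part of these cell-type markers in the results was not tested. In a bulk sample, fewer cells of a type and less RNA per cell cannot be told apart. The first replicates of day 0 and of DM1 day 2 and the second of DM3 day 2 stood apart by a low share of processed-pseudogene counts. That share was 0.584% in the DM3 library against 2.34% in its partner. The same DM3 library had 17750 genes with at least 1 count, against 20067 in its partner. Of its nonzero values 11.6% were not whole numbers, against 23.7%. The rank correlation of this pair, 0.962, was the lowest of the 7 groups. Member results that change without these 3 libraries are given both ways. The shares of all genes passing are given with all libraries only. Without the 3 libraries they were smaller in every comparison that holds day 0, DM1 day 2 or DM3 day 2. They were larger in the others.

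Levels are given in CPM, a count scaled to its library's size with TMM factors. Id1, Id2 and Id3 were at their highest in DM2 at day 2 and next highest at day 0, and fell in every other medium and day against day 0. Between the highest and the lowest group mean they spanned 10.8-fold (Id1), 23.2-fold (Id2) and 27.1-fold (Id3). The E-protein genes moved far less, by 1.97-fold (Tcf3), 2.01-fold (Tcf4) and 1.71-fold (Tcf12). The plot of levels by library shows this contrast.

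**Figure D1:**
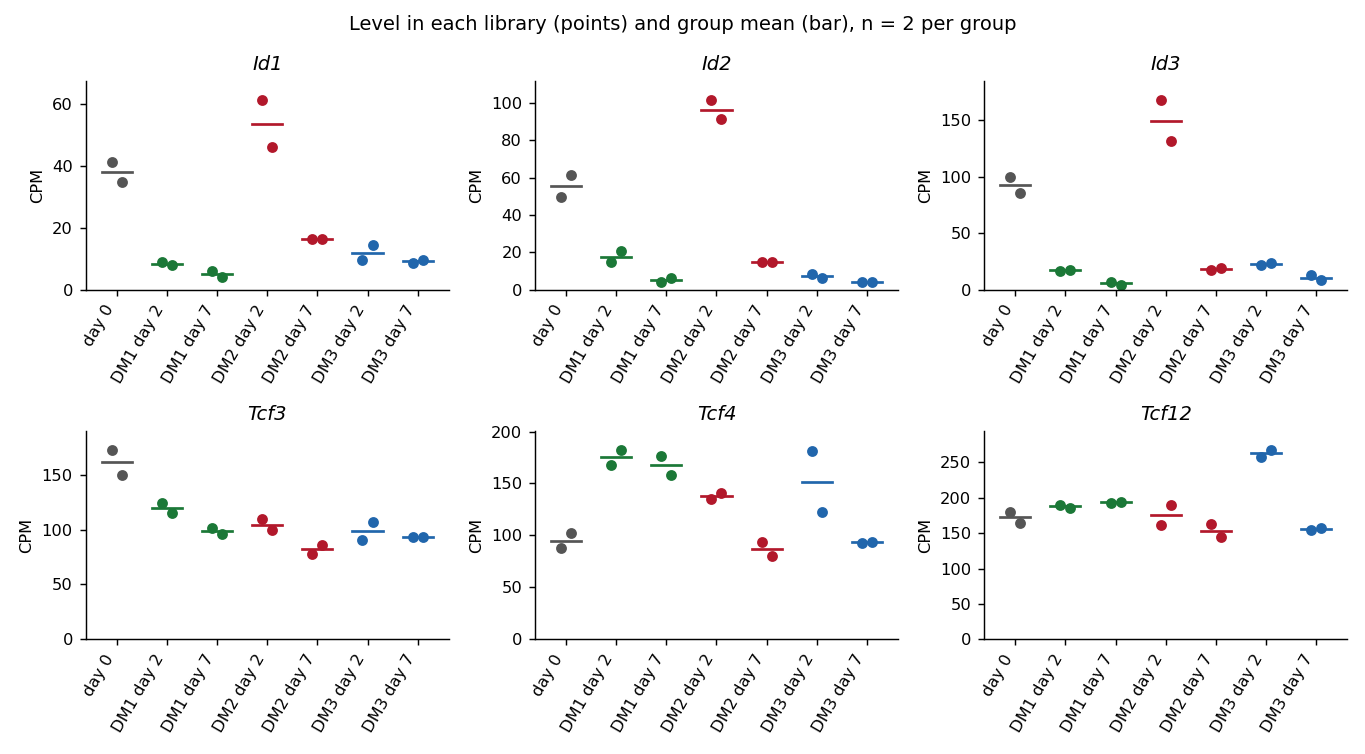
Level of Id1, Id2, Id3, Tcf3, Tcf4 and Tcf12 in CPM (linear axis from 0) by group. Points are the 2 libraries and the bar is their mean; the 3 Id genes peak in DM2 at day 2 (red), where Id3 averages 149.6 CPM.

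Id3 stood at 99.8 and 85.1 CPM at day 0 and at 167.8 and 131.4 CPM in DM2 at day 2. In the other media at day 2 it read 16.2 and 17.7 CPM (DM1) and 21.4 and 23.2 CPM (DM3). At day 7 it read 6.91 and 4.13 CPM in DM1, 17.8 and 18.9 CPM in DM2, and 12.6 and 8.71 CPM in DM3. Both DM2 day 2 libraries lay above both day 0 libraries, and every other library lay below them all. No 2 neighbours in the order of the Id3 group means overlapped.

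Id1 stood at 41.1 and 34.6 CPM at day 0 and at 61.1 and 46.0 CPM in DM2 at day 2. At day 2 it read 9.03 and 7.80 CPM in DM1 and 9.51 and 14.4 CPM in DM3. By day 7 the values were 5.99 and 3.92 CPM in DM1, 16.26 and 16.3 CPM in DM2, and 8.71 and 9.61 CPM in DM3. DM3 at both days and DM1 at day 2 were not ordered by their libraries: DM3 day 2 overlapped DM3 day 7, and DM3 day 7 overlapped DM1 day 2.

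Id2 stood at 49.6 and 61.5 CPM at day 0 and at 101.7 and 91.3 CPM in DM2 at day 2. At day 2 it read 14.6 and 20.8 CPM in DM1, but only 8.63 and 6.34 CPM in DM3. Day 7 values were 4.06 and 6.26 CPM in DM1, 14.9 and 14.7 CPM in DM2, and 4.14 and 4.19 CPM in DM3. Its order differed from that of Id1 and Id3: DM3 at day 7, not DM1 at day 7, had the lowest mean, although the libraries of these groups overlapped. Id2 counts per Id1 count were 1.21 and 1.78 at day 0. At day 2 they were 1.62 and 2.67 in DM1 and 1.663 and 1.985 in DM2, but 0.907 and 0.440 in DM3. By day 7 they were 0.679 and 1.596 in DM1, 0.919 and 0.9045 in DM2, and 0.476 and 0.436 in DM3. The DM2 day 7 values thus overlapped those of DM3 at day 2.

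Against day 0, all 3 Id genes fell in DM1 and DM3 at both days and in DM2 at day 7. The falls are from edgeR's quasi-likelihood test, and the adjusted p-values are Benjamini-Hochberg over the 15973 genes tested. In DM1 at day 2, Id1 fell by 2.17 ± 0.23 on the log2 scale (SE, adjusted p = 8.15e-05), Id2 by 1.65 ± 0.22 (0.000312) and Id3 by 2.44 ± 0.23 (5.36e-05). By day 7 in DM1 the levels were 7.6-fold (Id1), 10.8-fold (Id2) and 16.6-fold (Id3) below day 0. These are the deepest falls of Id1 and Id3 in the series by fitted value.

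In DM3 the deepest fall was that of Id2. At day 2 it was 7.44-fold lower than at day 0 (log2 fold change -2.90 ± 0.23, adjusted p = 2.73e-06), against 3.16-fold for Id1 and 4.15-fold for Id3. At day 7 it was 13.3-fold lower, against 4.13-fold for Id1 and 8.66-fold for Id3. In DM2 at day 7 the 3 genes were 2.32-fold (Id1), 3.74-fold (Id2) and 5.04-fold (Id3) lower than at day 0. All 15 of these falls passed under each alternative setting tried, leaving out any 1 library of the groups compared included.

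DM2 at day 2 was the exception. Id2 rose 1.74-fold over day 0 (log2 fold change 0.80 ± 0.21, adjusted p = 0.00956) and Id3 rose 1.62-fold (0.69 ± 0.22, 0.024). Id1 was 1.42-fold higher but did not pass (0.50 ± 0.22, 0.0831, 95% interval 0.01 to 0.99). The calls of these rises depended on single libraries. Without the first day 0 library, Id2 was at 0.65 (adjusted p = 0.081) and Id3 at 0.81 (0.0531), and without the first DM2 day 2 library they were at 0.67 (0.0701) and 0.46 (0.214). Without the second day 0 library Id3 was at 0.58 (0.137), and without the low-count filter at 0.71 (0.0647). Without the 3 pseudogene-poor libraries Id1 passed, at 0.63 (0.0267).

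**Figure D2:**
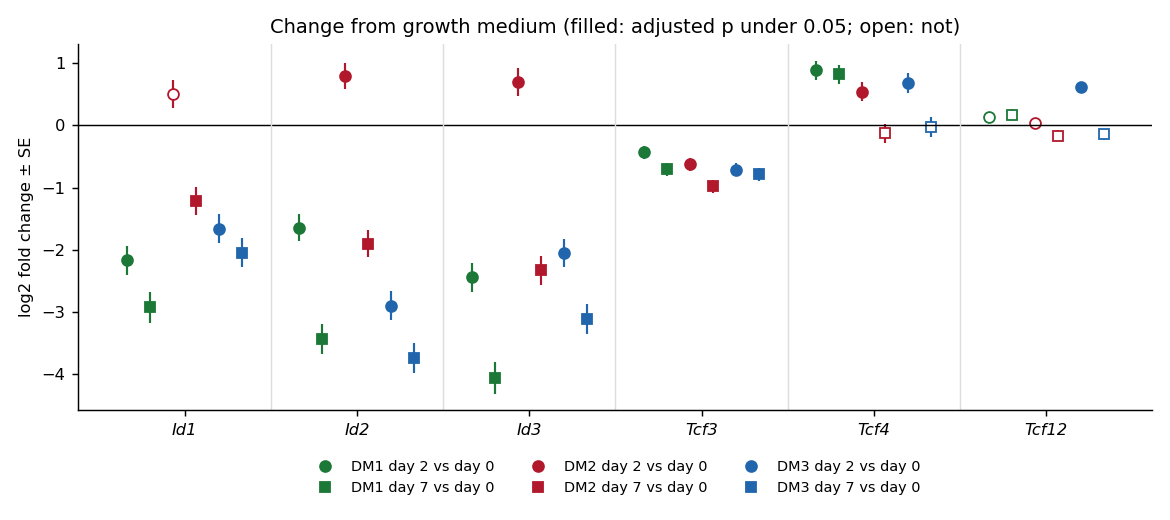
Log2 fold change against day 0 (y axis, with SE) for each gene in each medium at day 2 (circles) and day 7 (squares). Filled symbols passed an adjusted p of 0.05; the Id genes lie below 0 in all groups but DM2 at day 2, and Tcf3 lies below 0 in all 6.

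Counted over the 6 members that could be tested, 5 passed against day 0 in DM1 at day 2, where 29.7% of all tested genes passed (15.2% higher and 14.6% lower). In DM1 at day 7, 5 passed beside 53.5% of all genes (27.7% higher, 25.8% lower), and in DM2 at day 2, 4 passed beside 49.7% (23.5% higher, 26.2% lower). In DM2 at day 7, 4 passed beside 55.4% (24.5% higher, 30.9% lower), and in DM3 at day 7, 4 passed beside 59.0% (28.9% higher, 30.1% lower). In DM3 at day 2 all 6 passed, beside 50.9% (25.5% higher, 25.4% lower). The counts for DM2 at both days and for DM3 at day 7 are near or not far above the background. The count for DM2 at day 2 was 1 without the first day 0 library, and 2 without the first DM2 day 2 library.

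From day 2 to day 7 the Id genes fell further in DM1 and above all in DM2. In DM2 Id1 dropped 3.29-fold (log2 fold change -1.72 ± 0.23, adjusted p = 9.13e-05), Id2 6.5-fold (-2.70 ± 0.23, 3.56e-06) and Id3 8.15-fold (-3.03 ± 0.24, 3.31e-06). In DM1 Id2 dropped 3.45-fold and Id3 3.06-fold, and Id1 1.69-fold with an adjusted p of 0.0332. In DM3 Id3 dropped 2.09-fold (adjusted p = 0.004) and Id2 1.79-fold (0.0156), while Id1, at -0.39 ± 0.23, did not pass (0.196). Members that passed were 3 in DM1, beside 34.3% of all genes (16.8% higher, 17.5% lower). They were 5 in DM2, beside 54.8% (25.4% higher, 29.4% lower), and 4 in DM3, beside 47.9% (22.6% higher, 25.3% lower).

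The calls of 2 of the smaller drops were lost without 1 library, at log2 fold changes that stayed below 0. For Id1 in DM1, at -0.76 with all libraries, it was -0.65 (adjusted p = 0.16) without the first DM1 day 2 library, -0.86 (0.0696) without the second and -0.49 (0.208) without the second DM1 day 7 library. It was -0.65 (0.0717) without the 3 pseudogene-poor libraries and -0.77 (0.0663) without the low-count filter. For Id2 in DM3, at -0.84 with all libraries, it was -0.60 (0.101) without the first DM3 day 2 library. Without either DM3 day 7 library the Id2 drop was as large, at -0.83 (0.0805) and -0.84 (0.0711), as it was without the low-count filter, at -0.84 (0.0637). Id1 in DM3 passed without the first DM3 day 2 library (-0.65, 0.033). The drops of all 3 Id genes in DM2 passed under each alternative tried.

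Media that share the cocktail differ in serum, both in its kind and its amount. At day 2 Id RNA was far lower in DM3 than in DM2: 12.9-fold for Id2 (log2 fold change -3.69 ± 0.24, adjusted p = 6.61e-06), 6.71-fold for Id3 (-2.75 ± 0.23, 5.42e-05) and 4.47-fold for Id1 (-2.16 ± 0.23, 0.000161). Tcf12 was the opposite, 1.5-fold higher in DM3 (0.58 ± 0.09, 0.00131). In all 4 members passed, beside 16.3% of all genes (9.98% higher, 6.31% lower), and the 3 Id differences passed under each alternative tried. Tcf12 did not pass when only the groups compared were fitted (0.0862). In that fit 494 of 14337 genes passed, against 2602 of 15973 with all groups.

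At day 7 the same comparison gave smaller differences. Id2 was 3.56-fold lower in DM3 than in DM2 (-1.83 ± 0.24, adjusted p = 8.56e-05), Id1 1.78-fold (-0.83 ± 0.23, 0.0111) and Id3 1.72-fold (-0.78 ± 0.23, 0.0174). For Id3 the call was lost without either DM2 day 7 library (0.0542 and 0.0841) and without the second DM3 day 7 library (0.128), and for Id1 without the first DM3 day 7 library (0.0777). Here 3 members passed, beside 52.7% of all genes (27.5% higher, 25.2% lower). The difference between the media shrank from day 2 to day 7 for each Id gene: by 1.33 ± 0.32 for Id1 (interaction, adjusted p = 0.00767), 1.86 ± 0.33 for Id2 (0.0012) and 1.96 ± 0.32 for Id3 (0.000969). In this test 4 members passed, the other being Tcf12, beside 39.8% of all genes (20.0% up, 19.8% down).

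Media that share 2% HS differ by the cocktail, and at day 2 Id2 alone of the Id genes passed here. At day 2 Id2 was 2.38-fold lower in DM3 than in DM1 (-1.25 ± 0.23, adjusted p = 0.00164). Id1, at 0.51 ± 0.23 (95% interval -0.01 to 1.03), and Id3, at 0.39 ± 0.23 (-0.12 to 0.90), did not pass, with adjusted p-values of 0.114 and 0.215. Without the first DM3 day 2 library, Id1 passed at 0.78 (0.0195). Whether the response of Id2 differed from that of Id1 or Id3 was not tested. In all 3 members passed, beside 37.0% of all genes (17.6% higher, 19.4% lower).

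At day 7 the cocktail comparison passed for Id1 and Id3 and not for Id2. Id1 was 1.84-fold higher in DM3 than in DM1 (0.88 ± 0.24, adjusted p = 0.0115) and Id3 1.92-fold higher (0.94 ± 0.25, 0.0101), while Id2 was at -0.30 ± 0.25 (95% interval -0.85 to 0.25) and did not pass (0.354). The calls of both depended on single libraries: without the second DM1 day 7 library, Id1 was at 0.62 (0.0882) and Id3 at 0.63 (0.0529). Id3 was at 0.65 (0.0836) without the first DM3 day 7 library and Id1 at 0.81 (0.0635) without the second. In all 4 members passed, beside 47.7% of all genes (22.7% higher, 25.1% lower), and 1 to 2 without 3 of the 4 libraries in turn. The change of the DM3 to DM1 difference between days did not pass for any Id gene: its adjusted p was 0.438 for Id1, 0.0506 for Id2 and 0.241 for Id3. For Id2 it passed without the first DM1 day 2 library (1.19, 0.0202), the second DM1 day 7 library (1.29, 0.0145) or the first DM3 day 2 library (1.19, 0.0252), without the 3 pseudogene-poor libraries (0.98, 0.0276) and with DESeq2 (0.98, 0.0143). For Id3 it passed without the first DM1 day 7 library (0.98, 0.0295).

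**Figure D3:**
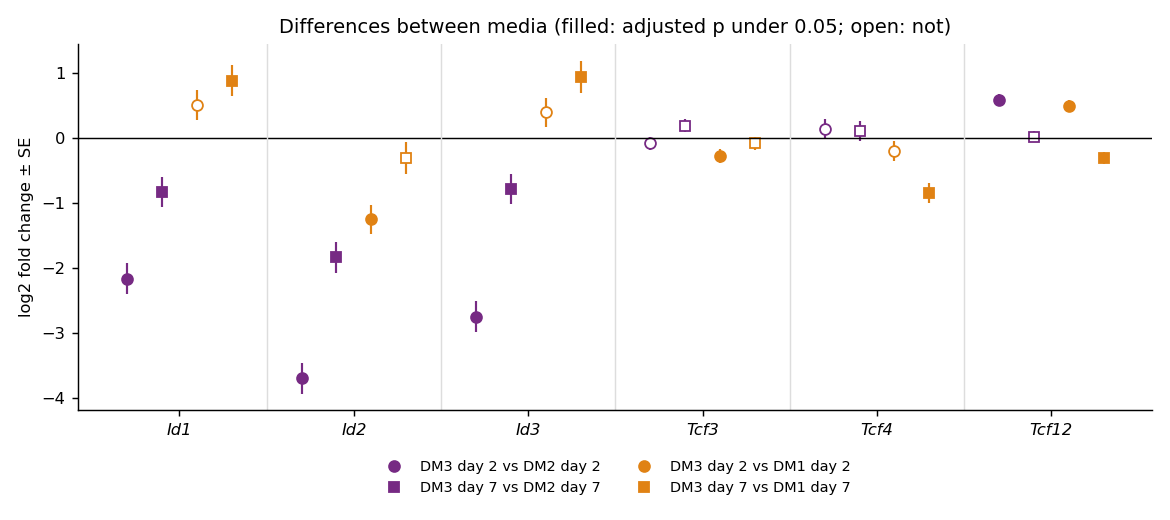
Log2 difference between media (y axis, with SE) for each gene: DM3 against DM2 in purple and DM3 against DM1 in orange, at day 2 (circles) and day 7 (squares). Filled symbols passed an adjusted p of 0.05; the Id2 value lies below 0 in all 4 comparisons, though not passed in DM3 against DM1 at day 7.

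DM2 against DM1 changes serum and cocktail together. At day 2 Id1 was 6.37-fold, Id2 5.43-fold and Id3 8.81-fold higher in DM2 (adjusted p = 1.14e-05, 1.53e-05 and 6.5e-06), and these 3 were the members that passed, beside 39.4% of all genes (17.5% higher, 21.9% lower). At day 7 all 6 passed, beside 57.8% (26.5% higher, 31.4% lower): Id1, Id2 and Id3 were 3.27-fold, 2.89-fold and 3.3-fold higher, and the 3 E-protein genes were lower. The Id differences passed under each alternative tried at both days.

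The last Id gene, Id4, and Twist1, a bHLH factor that pairs with E proteins and can hold back MyoD, were near the limit of detection. Id4 had 0 to 4 counts per library, 0 in both DM3 day 7 libraries. Twist1 had 2 counts in the first day 0 library, 2 in the first DM1 day 2 library and 0 in the other 12. A count of 0 allows a level of up to 3 counts, which is 0.102 to 0.132 CPM in these libraries, and reads without molecular identifiers are not independent molecules, so this covers counting error only. Neither gene passed the low-count filter, so neither was tested. Id4 exons overlap genes on the opposite strand, and whether the authors' counting used strand is not given in the sources used here.

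Among the E proteins, Tcf3 (which encodes E12 and E47) fell against day 0 in all 6 groups. It read 172.8 and 150.0 CPM at day 0, 124.2 and 114.8 CPM in DM1 at day 2, 109.4 and 99.6 CPM in DM2 at day 2, and 90.3 and 106.7 CPM in DM3 at day 2. At day 7 it read 101.7 and 96.0 CPM in DM1, 77.9 and 85.9 CPM in DM2, and 93.4 and 93.3 CPM in DM3. Every library of the 6 groups lay below both day 0 libraries. The smallest fall was in DM1 at day 2 (-0.43 ± 0.10, adjusted p = 0.00671), and the deepest in DM2 at day 7 (1.97-fold, -0.98 ± 0.10, 5.17e-06). The smallest did not pass without the first day 0 library (-0.33, 0.0812), the second DM1 day 2 library (-0.38, 0.0688) or the 3 pseudogene-poor libraries (-0.39, 0.0799).

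Tcf4, which encodes E2-2, went up at day 2 in all 3 media and stayed up at day 7 in DM1 alone. It read 87.7 and 102.4 CPM at day 0, 167.4 and 182.5 CPM in DM1 at day 2, 135.5 and 140.7 CPM in DM2 at day 2, and 181.5 and 122.3 CPM in DM3 at day 2. Day 7 gave 176.7 and 158.0 CPM in DM1, 93.3 and 80.4 CPM in DM2, and 92.5 and 94.2 CPM in DM3. All day 2 libraries and the DM1 day 7 libraries lay above day 0, while the DM2 and DM3 day 7 groups overlapped day 0.

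Tcf4 rose 1.84-fold over day 0 in DM1 at day 2 (0.88 ± 0.16, adjusted p = 0.00145), 1.76-fold in DM1 at day 7 (0.000951), 1.6-fold in DM3 at day 2 (0.00354) and 1.45-fold in DM2 at day 2 (0.0134). The DM2 rise did not pass without the first day 0 library (0.43, 0.113) or the second DM2 day 2 library (0.51, 0.07), nor the DM3 rise when only those groups were fitted (0.104). From day 2 to day 7 Tcf4 fell in DM2 (-0.67 ± 0.16, 0.0035) and DM3 (-0.70 ± 0.16, 0.00314), and was 1.79-fold lower in DM3 than in DM1 at day 7 (0.000937). The DM3 fall did not pass when only those groups were fitted (0.0732). The change of the DM3 to DM1 difference between days was -0.64 ± 0.22 (0.0431), and it lost its call without any 1 library of the groups other than the second DM3 day 2 library (0.0631 to 0.137). In this test 2 members passed, Tcf4 and Tcf12, beside 34.9% of all genes (16.3% up, 18.7% down).

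Tcf12, which encodes HEB, was raised in DM3 at day 2 only among the 6 comparisons with day 0. It read 257.8 and 267.9 CPM there, against 180.4 and 164.2 CPM at day 0, 189.8 and 186.0 CPM in DM1 and 161.8 and 189.7 CPM in DM2. Values at day 7 were 193.1 and 194.2 CPM in DM1, 162.4 and 144.7 CPM in DM2, and 153.8 and 158.0 CPM in DM3. Both DM3 day 2 libraries lay above all the others. The rise was 1.53-fold over day 0 (0.61 ± 0.09, adjusted p = 0.000146) and 1.4-fold over DM1 at day 2 (0.48 ± 0.09, 0.00141). By day 7 it had fallen 1.69-fold in DM3 (-0.75 ± 0.09, 3.5e-05), and the test that its DM3 to DM1 difference changed between days gave -0.80 ± 0.13 (0.000605).

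Some small E-protein differences between media lost their call when libraries were left out. Tcf3 was 1.21-fold lower in DM3 than in DM1 at day 2 (log2 fold change -0.28, adjusted p = 0.049). It did not pass without either DM1 day 2 library (-0.22, 0.244, and -0.33, 0.0828), without the first DM3 day 2 library (-0.16, 0.277) or without the 3 pseudogene-poor libraries (-0.35, 0.0907). Without the first DM3 day 2 library Tcf4 passed in that comparison (-0.52, 0.00747). In DM3 against DM1 at day 7 Tcf12 was 1.24-fold lower (-0.31, 0.0141). Without any 1 of the 4 libraries the difference stayed at -0.33 to -0.29 but did not pass (0.0537 to 0.089).

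The same held in DM2. Against DM1 at day 7 Tcf3 was 1.21-fold lower (0.0371), its call lost without either DM1 day 7 library (-0.23, 0.168, and -0.31, 0.0643) and without the first DM2 day 7 library (-0.20, 0.222), against -0.27 with all. Tcf12 was 1.26-fold lower (-0.33, 0.00786), its call lost without the second DM2 day 7 library (-0.25, 0.0871), and Tcf4 1.93-fold lower (0.000307). From day 2 to day 7 in DM2 Tcf3 fell 1.28-fold (-0.35, 0.011), its call lost without the first DM2 library of either day (-0.28 for both, 0.102 and 0.0964), and Tcf12, which did not pass (0.093), passed without the first DM2 day 2 library (-0.30, 0.0296). In DM2 against DM1 at day 2 Tcf4, at -0.34 ± 0.16 (0.106), passed without the 3 pseudogene-poor libraries (-0.41, 0.026).

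Scaling matters for small changes at day 7. With library totals alone in place of TMM, the median log2 fold change of all genes moved by -0.225 (DM2 at day 7 against day 0) and -0.209 (DM3 at day 7 against day 0), and the genes higher were 2825 of 9332 passing and 3577 of 9678 passing, against 3921 of 8854 and 4613 of 9428 with TMM. Under it Tcf12 was lower at day 7 than at day 0 in DM2 (-0.39, adjusted p = 0.00281) and in DM3 (-0.35, 0.00507), where TMM gave -0.17 ± 0.09 (0.148) and -0.14 ± 0.09 (0.2). The Id falls passed under both scalings.

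The balance of Id to E-protein RNA does not depend on scaling, since it is formed within a library. It is the sum of CPM per kb of merged exon over Id1 to Id4 divided by that over Tcf3, Tcf4 and Tcf12, and as a sum over chosen genes it carries no test. It stood at 1.94 and 1.99 at day 0 and at 4.43 and 3.58 in DM2 at day 2. For day 2 DM1 gave 0.466 and 0.535, and DM3 gave 0.520 and 0.581. At day 7 it read 0.243 and 0.197 in DM1, 0.907 and 0.916 in DM2, and 0.447 and 0.405 in DM3. Id RNA thus exceeded E-protein RNA per length at day 0 and in DM2 at day 2 alone, and DM1 and DM3 overlapped at day 2.

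As a percentage of the day 0 ratio, DM2 stood at 203.9% at day 2 and 46.4% at day 7, DM1 at 25.5% and 11.2%, and DM3 at 28.0% and 21.7%. The numerator carried most of this: summed Id RNA ranged from 9.49 to 169.3 CPM per kb over the group means, and summed E-protein RNA from 33.3 to 54.5. Id3 gave 48.2% of the Id sum at day 0 and 49.3% in DM2 at day 2, while Id1 gave the most in DM1 (44.5%), DM2 (46.2%) and DM3 (51.0%) at day 7. That order at day 7 held by exon length only: per kb of coding length Id3 was above Id1 in DM1 (15.5 against 9.12 CPM per kb), DM2 (51.4 against 29.98) and DM3 (29.9 against 16.9). By exon length Id2 gave 21.4% at day 0 and 11.0% in DM3 at day 7. With coding length in place of exon length the ratio was 2.35 at day 0, 3.92 in DM2 at day 2 and 0.175 in DM1 at day 7. Between the E proteins, levels per length depended on this choice too: Tcf3 was highest by exon length at day 0 (40.0 CPM per kb, against 11.1 for Tcf12 and 3.47 for Tcf4), but by coding length Tcf3 (72.5) and Tcf12 (71.1) were level, within their SD of 7.26 and 4.72.

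**Figure D4:**
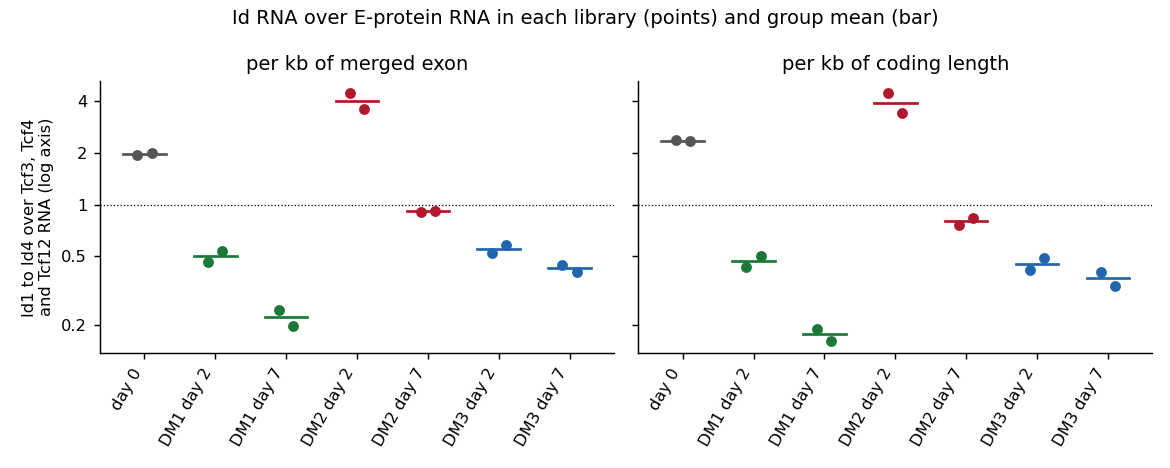
Ratio of summed Id1 to Id4 RNA to summed Tcf3, Tcf4 and Tcf12 RNA (log axis) by group, per kb of merged exon (left) and of coding length (right). Points are libraries and bars group means; with either length only day 0 and DM2 at day 2 lie above 1, the dotted line.

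The muscle bHLH factors, which bind E boxes as pairs with E proteins, did not follow the Id genes in a single way. Myog, which encodes myogenin and is switched on as myoblasts differentiate, stood at 1.75 and 1.87 CPM at day 0. It read 47.2 and 39.9 CPM in DM1 at day 2, 29.2 and 24.7 CPM in DM2 at day 2, and 204.3 and 231.0 CPM in DM3 at day 2. By day 7 it read 53.5 and 40.9 CPM in DM1, 32.0 and 32.2 CPM in DM2, and 1110 and 994.9 CPM in DM3. All 6 groups lay above day 0, DM3 above all others, and DM2 at day 2, where Id RNA was highest, the lowest of the 6.

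Myog rose 14.9-fold over day 0 in DM2 at day 2 (log2 fold change 3.89 ± 0.16, adjusted p = 9.97e-09), 24.0-fold in DM1 at day 2 (8.85e-09) and 120.0-fold in DM3 at day 2 (3.09e-10). At day 2 it was 8.08-fold higher in DM3 than in DM2 (3.02 ± 0.15, 9.81e-08), and at day 7 32.8-fold higher (5.04 ± 0.16, 3.6e-10). The summed level of 5 myotube markers, Myog among them, went from 6.94 and 7.70 CPM at day 0 to 63.5 and 53.2 CPM (DM2) or 627.8 and 747.6 CPM (DM3) by day 2. In DM1 at day 2 it was 355.5 and 320 CPM. At day 7 the sum was 898 and 666.2 CPM in DM1, 447.5 and 442.1 in DM2, and 19480 and 18510 in DM3. Id1 and Id3 had their lowest means in DM1 at day 7, not in DM3. The part of this marker sum in the Id differences was not tested.

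Myod1, the gene of MyoD, had its highest mean at day 0 (137.0 ± 12.3 CPM, SD, n = 2) and was next highest in DM2 at day 2 (108.6 ± 9.94), the same pair of groups as for the Id genes in the other order. It fell 7.5-fold by day 7 in DM2 (adjusted p = 1.05e-07) and 4.13-fold in DM1 (1.53e-06), but 1.99-fold in DM3 (0.000266). At day 2 it was 1.64-fold lower in DM3 than in DM2 (0.0132), which was lost without the first DM2 day 2 library (0.127) and when only those groups were fitted (0.0533). Myf5, an early factor of the same family, was highest in DM2 at day 2 (288.7 ± 17.0 CPM against 44.0 ± 2.89 at day 0, 6.56-fold, 4.81e-09). Myf6, a late factor, was at 5.84 ± 0.81 CPM in DM2 at day 2 and 0.482 ± 0.041 at day 0 (12-fold, 2.47e-06). So DM2 at day 2 combined the highest group means of Id1, Id2, Id3, Myf5 and Myf6 with the lowest Myog of the 6 groups in differentiation medium.

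**Figure D5:**
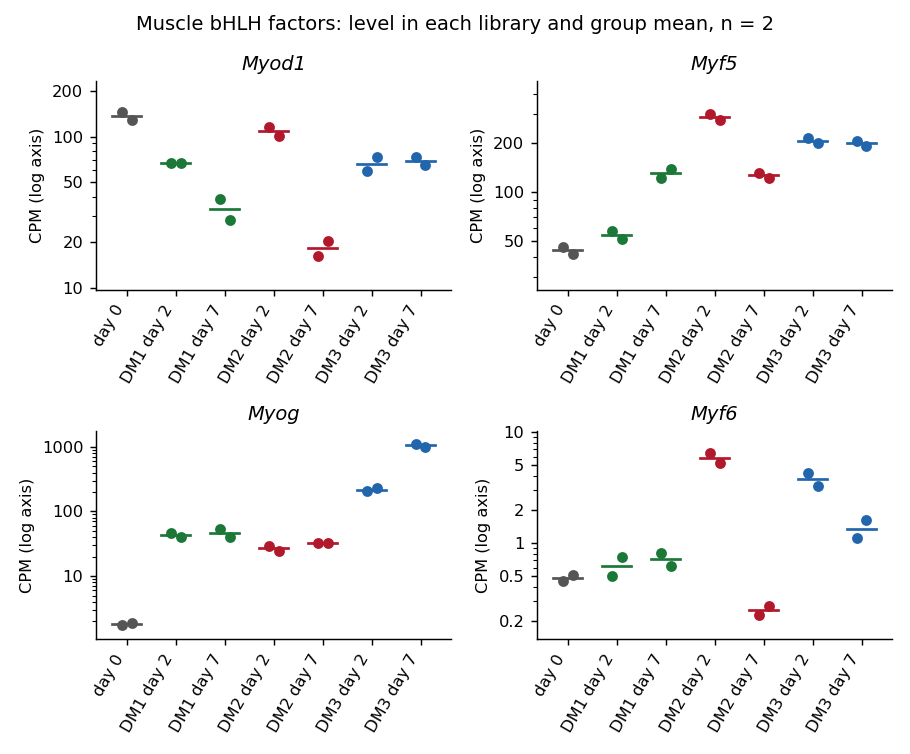
Level of Myod1, Myf5, Myog and Myf6 in CPM (log axis) by group; points are the 2 libraries and bars their mean. Myog in DM3 at day 7 averages 1052 CPM, and Myf5 and Myf6 are highest in DM2 at day 2.

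Of the 27 genes listed as bHLH partners of E proteins, 9 could be tested, and 18 were too low. In DM3 at day 7 against day 0, 4 were higher and 4 lower, beside 28.9% of all genes higher and 30.1% lower, with a median log2 fold change of 0.08 beside 0.03 for all genes. Msc, which encodes musculin, a bHLH repressor, went from 10.1 ± 1.85 to 0.624 ± 0.105 CPM (16.1-fold lower, adjusted p = 1.14e-08). Atoh8, a bHLH factor, was like the Id genes in peaking in DM2 at day 2, with 34.8 ± 3.32 CPM against 8.37 ± 0.74 at day 0 and 12.5 ± 0.69 in DM3 at day 2, and was 2.78-fold lower in DM3 than in DM2 at day 2 (-1.48 ± 0.22, 0.00107).

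Of 12 E-box repressors and Hes and Hey factors, 10 were tested. At day 7 in DM3, 8 were higher than at day 0 and 2 lower, beside 28.9% of all genes higher and 30.1% lower, with a median of 1.21 beside 0.03. Against day 0 in DM2 at day 2, 6 were higher and 1 lower, beside 23.5% and 26.2% of all genes (median 0.44 beside 0.01). Heyl, a Notch target, went from 4.2 ± 0.37 CPM at day 0 to 88.0 ± 5.99 in DM3 at day 7 (20.9-fold, adjusted p = 3.26e-06). Bhlhe41, a clock repressor that binds E boxes, was 5.99-fold higher (2.27e-10), and Hes6, which favours muscle differentiation, 5.09-fold (1.14e-07).

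Of 13 cofactors, 12 were tested. In DM3 at day 2 against day 0, 7 were higher and 1 lower, beside 25.5% of all genes higher and 25.4% lower (median 0.39 beside -0.03). The DM2 day 2 counts were 2 higher and 1 lower, beside 23.5% and 26.2% of all genes (0.00 beside 0.01). Mef2c, a partner of muscle bHLH factors, was 5.4-fold higher in DM3 at day 7 than at day 0 (98.3 ± 5.61 against 18.2 ± 1.18 CPM, adjusted p = 4.91e-09). Mef2a was 4.69-fold higher (2.61e-09). Cbfa2t3, a corepressor that binds E proteins, had 1 and 2 counts at day 0 and 447 and 516 counts in DM3 at day 7. For this list in DM3 at day 7, 5 were higher and 2 lower than at day 0 with TMM, beside 28.9% and 30.1% of all genes. With library totals alone they were 5 and 7, and 3577 of the 9678 genes passing were higher.

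The BMP and Smad inducers of Id moved in both directions. Of 24 listed, 21 were tested: against day 0, 11 were higher and 3 lower in DM3 at day 2, beside 25.5% of all genes higher and 25.4% lower (median 0.49 beside -0.03). The DM2 day 2 counts were 9 higher and 1 lower, beside 23.5% and 26.2% of all genes (0.29 beside 0.01). From day 2 to day 7 in DM2, where all 3 Id genes fell, 2 inducers were higher and 12 lower, beside 25.4% and 29.4% of all genes (median -0.50 beside -0.01). With library totals alone they were 2 and 15, and 2665 of the 9219 genes passing were higher. In DM1 at day 7, where the Id genes fell too, 12 inducers were higher than at day 0 and 2 lower. All genes stood at 27.7% and 25.8% there (median 0.50 beside 0.055). At day 7 the Id genes were higher in DM2 than in DM1, but 1 inducer was higher and 16 lower. All genes stood at 26.5% and 31.4% there (median -0.80 beside -0.01). Smad9, a Smad that carries BMP signals, was high where the Id genes were: it stood at 5.85 ± 0.46 CPM at day 0 and 5.15 ± 0.82 in DM2 at day 2. Its other levels were 2.06 ± 0.37 CPM in DM1 and 1.69 ± 0.34 in DM3 at day 2, and 1.2 ± 0.19 in DM1, 0.688 ± 0.092 in DM2 and 0.457 ± 0.108 in DM3 at day 7. In DM2 it fell 7.44-fold from day 2 to day 7 (-2.90 ± 0.28, adjusted p = 3.27e-06). Hfe2, which encodes hemojuvelin, a BMP co-receptor made in muscle, rose from 0.725 ± 0.159 CPM at day 0 to 5.04 ± 0.64 in DM2 at day 2 and 30.9 ± 0.48 in DM3 at day 2. It was 6.15-fold higher in DM3 than in DM2 at day 2 (adjusted p = 8.85e-08), the opposite of the Id genes. Of the 21 inducers tested, 6 were higher and 1 lower in that comparison, beside 9.98% and 6.31% of all genes (median 0.05 beside -0.02). In DM3 at day 7, 10 were higher and 6 lower than at day 0, beside 28.9% of all genes higher and 30.1% lower. In DM2 at day 7, 3 were higher and 6 lower, beside 24.5% and 30.9%, with a median of -0.23 beside -0.03. With library totals alone the counts were 7 and 7 in DM3 and 3 and 10 in DM2. Fewer of all genes were higher under that scaling too: 3577 of 9678 passing in DM3 and 2825 of 9332 in DM2.

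Of 19 BMP antagonists and inhibitory Smads, 17 were tested. Grem1, which encodes the BMP antagonist gremlin, went from 110.6 ± 5.57 CPM at day 0 to 23.6 ± 0.32 in DM2 at day 2 and 7.00 ± 1.75 in DM3 at day 2, a 15.9-fold fall in DM3 (adjusted p = 6.15e-08). Smad6 and Smad7, inhibitory Smads that BMP signals are known to induce, were 2.22-fold (0.0107) and 1.93-fold (0.00226) lower in DM3 than in DM2 at day 2, in the direction of the Id genes. Smad6 did not pass without the first DM2 day 2 library (0.0646), and neither passed when only those groups were fitted (0.0573 and 0.067). Smad7 also did not pass without the 3 pseudogene-poor libraries. Over the whole list, 1 was higher and 4 lower in DM3 than in DM2 at day 2, beside 9.98% and 6.31% of all genes (median 0.03 beside -0.02). In DM3 at day 2, 4 members of the list were higher than at day 0 and 8 lower, beside 25.5% of all genes higher and 25.4% lower (median -0.06 beside -0.03).

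Among 14 genes of Id protein turnover and other Id regulation, all tested, 2 were higher and 8 lower in DM3 at day 2 than at day 0, beside 25.5% of all genes higher and 25.4% lower (median -0.36 beside -0.03). At day 2 in DM2, 1 was higher and 8 lower, beside 23.5% and 26.2% (-0.31 beside 0.01). Egr1, an immediate early factor that can drive Id transcription, ran against the Id genes at day 2: it was at 486.9 ± 9.76 CPM in DM1, 213.2 ± 11.4 in DM3 and 36.5 ± 4.2 in DM2, against 138.4 ± 5.60 at day 0. Its difference between DM3 and DM2 was 5.84-fold (adjusted p = 3.44e-05). Usp1, whose product removes ubiquitin from Id proteins, fell in DM2 at day 2 (1.85-fold, 8.88e-06) and in DM3 at day 2 (2.65-fold, 1.65e-07).

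Of 11 genes reported as effectors of E proteins and Id proteins, mostly of the cell cycle, 9 were tested. In DM2 at day 2, 1 was higher and 5 lower than at day 0, beside 23.5% and 26.2% of all genes (median -0.78 beside 0.01). At day 2 in DM3, 2 were higher and 5 lower, beside 25.5% of all genes higher and 25.4% lower (-0.91 beside -0.03). Ccnd1, which encodes cyclin D1, went from 391.9 ± 9.40 CPM at day 0 to 68.5 ± 1.22 in DM2 at day 2 and 36.9 ± 3.74 in DM3 at day 2 (5.72-fold, 6.67e-09, and 10.6-fold, 5.6e-10). The fall of Ccnd1 in DM2 at day 2 thus came with Id2 and Id3 above day 0. Cdkn1a, which encodes the cell cycle inhibitor p21, was at 180.4 ± 33.9 CPM in DM2 and 281.6 ± 29.8 in DM3 at day 2 (1.56-fold higher in DM3, 0.00548; 0.122 when only those groups were fitted).

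The genes whose pattern was most like each member were ranked by Pearson's r of log2 CPM over the 7 group means, among 10773 genes with a span of at least 2-fold. For Id1 the first was Id3 (r = 0.974), and the r between Id1 and Id2 was 0.905 and between Id2 and Id3 0.935. For Id2 they included Selp, which encodes P-selectin (0.958), and for Id3 Slc16a13, a transporter gene (0.939). For Tcf4 they were Eva1b (0.983), Prkd1 (0.971) and Spice1 (0.965). With 7 points that share the same libraries, these values describe likeness and carry no test, and among the top genes several (Penk, Plk-ps1, Gm12387) and Prkd1 had group means of 1.08 CPM at most. Selp went from 30.1 ± 2.12 CPM at day 0 to 23.8 ± 2.45 in DM2 at day 2, so unlike the Id genes it had its highest mean at day 0.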

How the data were processed

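RNA of 14 C2C12 libraries was sequenced from poly(A) RNA. Per the submitters' processing notes, reads were aligned with STAR 2.5.1b to GRCm38.p5 and counted with RSEM 1.2.31. The authors deposited expected counts per gene, which need not be whole because reads matching several genes are shared among them; members' counts were within 0.02 of whole. Counts were rounded and tested with edgeR 4.0.16 (R 4.3.3): filterByExpr by group, TMM, 1 model of the 7 groups (7 residual degrees of freedom), robust quasi-likelihood F test, Benjamini-Hochberg over 15973 genes, passing at an adjusted p under 0.05. The SE is the absolute log2 fold change over the square root of F, and intervals are 95%. Of 17 comparisons, 15 are pairwise and 2 test whether a difference between media changed between days. DESeq2 1.42.0, library totals, no filter, only the compared groups, a replicate block and leaving out libraries were alternatives. The fit was tested on simulated data. Exon lengths are from Gencode vM21.

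Members and lists were chosen with earlier results of these data known. Named genes are all members, Myod1, Myf5, Myog and Myf6, at most 3 passing genes per list and comparison by size of change with at least 1 CPM in a group, and the 3 genes most like each member that spans 2-fold.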

Additional observations from a re-analysis of the deposited data

Results flagged for a closer look

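For these genes the difference between 2 media itself changed from day 2 to day 7, by the interaction term of edgeR's quasi-likelihood test. For DM3 against DM2 the change on the log2 scale was 1.33 for Id1, 1.86 for Id2 and 1.96 for Id3 (adjusted p = 0.00767, 0.0012 and 0.000969), and -0.56 for Tcf12 (0.00475). The Id genes were much lower in DM3 than in DM2 at day 2 and less so at day 7, while Tcf12 was higher in DM3 at day 2 alone. For DM3 against DM1 the change was -0.80 for Tcf12 (0.000605) and -0.64 for Tcf4 (0.0431), beside 2 members passing and 34.9% of all genes. Those of Id1, Id2, Id3 and Tcf12 passed in each alternative tried, and that of Tcf4 did not.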

How the results depend on the processing

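With 2 libraries a group, leaving 1 out left a group with a lone library, assumed to vary as the other groups do. Depth limited Id4 and Twist1, at 0 to 4 counts a library. Over libraries left out in turn, the members passing in DM2 at day 2 against day 0 numbered 1 to 3 (4 with all), in DM3 against DM1 at day 7 1 to 3 (4), and for the DM3 to DM1 change between days 1 to 2 (2). That last count was also 1 without the low-count filter, with only those groups fitted and with the replicate block. Same-numbered libraries did not deviate together in a single direction: over 21 pairs of groups the deviations correlated at -0.629 to 0.518, with a median of 0.005. Of these pairs 2 were over 0.1 and 3 under -0.1, and what they share was not tested. With the replicate block 100 of 102 member values kept their call. Tcf4 in that change between days was then at -0.63 (adjusted p = 0.0542) and Tcf3 in DM3 against DM1 at day 2 at -0.28 (0.0599). With coding length the Id to E-protein ratio moved beyond its SD to 2.35 (day 0), 0.175 (DM1 day 7), 0.797 (DM2 day 7), 0.452 (DM3 day 2) and 0.372 (DM3 day 7).

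Signs turned for member values that had not passed, and for no value that had; the cause was not tested. Ranges are over libraries left out in turn, in log2. In DM2 at day 2 against day 0 Tcf12 ran from -0.0931 to 0.0944. In DM3 against DM2 at day 7 it ran from -0.0556 to 0.108, and was at -0.013 with DESeq2 and -0.014 without the filter. Tcf4 ran from -0.133 to 0.0897 in DM3 at day 7 against day 0, from -0.152 to 0.0128 in DM1 day 7 against day 2, from -0.518 to 0.0513 in DM3 against DM1 at day 2 and from -0.174 to 0.395 in DM3 against DM2 at day 2. For the DM3 to DM2 change between days it ran from -0.288 to 0.280, and was at 0.024 with library totals. Tcf3 ran from -0.191 to 0.0511 in DM3 day 7 against day 2, with 0.0504 without the 3 pseudogene-poor libraries, and from -0.209 to 0.0317 in DM3 against DM2 at day 2. Id2 ran from -0.582 to 0.0383 in DM3 against DM1 at day 7.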
